A study of Mus musculus with 8 samples.

Results

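Lipid-laden macrophage genes are 10 genes that mark macrophages filled with lipid: *Trem2*, *Clec7a*, *Itgax*, *Spp1*, *Mmp12*, *Lgals3*, *Gpnmb*, *Atp6v0d2*, *Ctsk* and *Cd9*. They were named as a group after the difference between the groups had been seen in these same libraries, so their group difference is described here and was not tested as a finding. All 10 were found by symbol among the 44674 genes of the table, and all 10 passed the filter on low counts. The tissue was brown adipose tissue (BAT) of 4 control mice (Ox1R fl/fl, Sert-Cre wt/wt) and 4 Ox1RΔSERT mice (Ox1R fl/fl, Sert-Cre tg/wt), measured by mRNA sequencing. In Ox1RΔSERT mice, Cre driven by the serotonin transporter gene removes orexin receptor 1 from cells that express this transporter, chiefly serotonergic neurons, and the controls were bred alongside them and carry the same floxed alleles without Cre. All 8 mice were male, had a high-fat diet (HFD) from week 4 to week 18 and were killed once a hyperinsulinemic-euglycemic clamp, an infusion of insulin with glucose held steady, had ended. Each library is 1 mouse, and mice are named by their numbers.

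Macrophages that take up lipid from dying or overfilled adipocytes switch on a shared set of genes, in which the lipid-sensing receptor TREM2 is a central regulator, and such cells are known from obese white fat, atherosclerotic plaque and injured liver. The set covers surface receptors, secreted proteins that act on matrix and on other cells, and proteins of the lysosome, where the engulfed lipid is broken down. *Adgre1* (F4/80, an adhesion receptor) and *Csf1r* (the receptor for the macrophage growth factor CSF1) are expressed by most mouse macrophages whatever their state. The 10 genes were therefore also expressed as counts per count of *Adgre1* or of *Csf1r* in the same mouse. In bulk tissue, fewer cells of a type and less RNA per cell cannot be told apart, and a ratio of 2 transcripts compares their amounts without counting cells.

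Total counts were 35852708 to 50063339 per mouse, and 3 counts corresponded to normalized values (CPM, counts scaled to the size of the library, after TMM scaling) of 0.0592 to 0.0951, a floor that covers counting error only. The lowest estimated count of any member in any mouse was 12. Ox1RΔSERT mice 11601 and 11708 stood apart from the other 6 mice: in 20.1% of the 14489 genes tested, and in 10 of 10 members, they held the 2 highest normalized values. Markers of skeletal muscle, whose summed level (TPM) was 517 in control mouse 11253, 1034 in Ox1RΔSERT mouse 11708 and 103 in mouse 11601, against 1.22 to 16.6 in the other 5 mice, moved with single mice of both groups. Log2 fold changes of the members and both reference genes are therefore also given without mice 11601 and 11708. So are their medians over the gene lists other than those of T and B cells. They are given without mice 11253 and 11708 where this turns a direction or moves the value by more than 1.5 times. Values of other single genes are for all 8 mice unless stated.

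As a group, the members had higher mean levels in Ox1RΔSERT mice. The log2 fold change was above 0 in 10 of 10 members, against 50.4% of all genes tested, and above 1 in 9 of 10, against 7.23%. Its median over the members was 2.12, beside 0.00 over all genes tested. At an adjusted p under 0.05, edgeR's quasi-likelihood test called 0 of 10 members and 0% of all genes, and limma voom also called 0. At an unadjusted p under 0.05, edgeR listed 10 of 10 members as higher, against 10.2% of all genes. DESeq2 called 4 of 10 members higher (*Spp1*, *Itgax*, *Ctsk* and *Trem2*), against 1.54% of the 15119 genes for which DESeq2 gave an adjusted p-value. This count turned on single mice, as did the number of all genes called, which was 265 with all 8 mice. DESeq2 called 0 members and 17 genes without Ox1RΔSERT mouse 11601, and 1 member and 19 genes without mouse 11708. It called 1 member each without control mice 10684, 11560 and 11563, with 373, 17 and 49 genes. It called 7 members and 247 genes without control mouse 11253, 8 and 936 without Ox1RΔSERT mouse 11613, and 9 and 1516 without mouse 11243. Shares of all genes were not worked out for these fits. Normalized values of all 4 Ox1RΔSERT mice lay above those of all 4 control mice in 1 of 10 members (*Spp1*), against 2.69% of all genes (5.5% in either direction). These shares are printed as background, and nothing is read from them, because the members were chosen on this contrast. Without mice 11601 and 11708, the median over the members was 0.75, and 8 of 10 log2 fold changes stayed above 0.

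**Figure D1:**
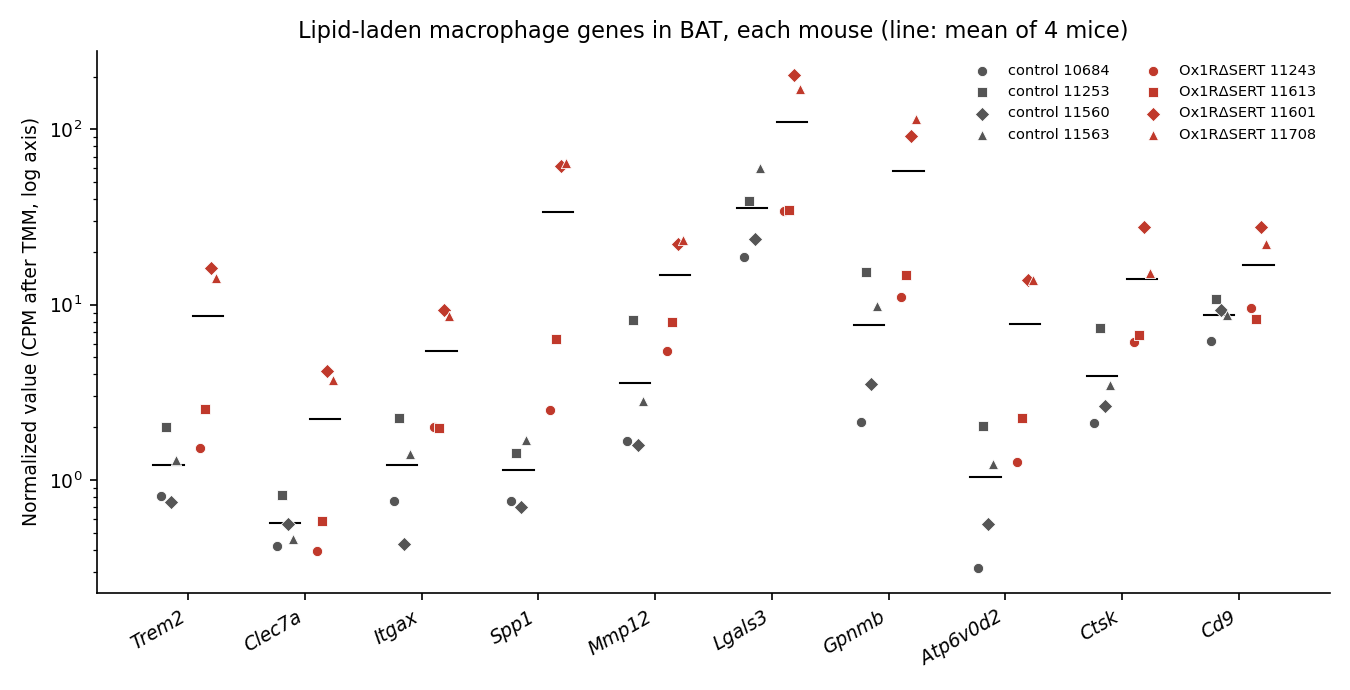
Normalized values (CPM after TMM scaling, log axis) of the 10 genes in each of 4 control mice (grey) and 4 Ox1RΔSERT mice (red); lines are group means. Mice 11601 and 11708 lie above all control mice in 10 of 10 genes, whereas mice 11243 and 11613 lie among the control mice in most of them.

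Promoter sequences are shown for the members that hold the letters of a motif linked to myeloid or lysosomal genes, because the members moved together from mouse to mouse. RefSeq promoters on GRCm38.p6, which run from 250 bases before to 50 bases after a start, were found for 9 of the 10 members, in 12 windows. The letters TGANTCA, with any base in the middle, are called AP-1 letters here. They are a looser form of the site TGA(C/G)TCA that Fos and Jun factors bind. The looser letters occurred in 4 of the 12 windows, those of *Gpnmb*, *Itgax*, *Trem2* and the second start of *Mmp12*, and in 7.81% of all 32851 promoters. The match of *Trem2*, TGAATCA, has A in the middle and is not the narrower site. The share of all promoters with the narrower site was not worked out. The letters AGGAAGT of the myeloid factor PU.1 occurred in 2 windows, those of the first starts of *Spp1* and *Mmp12*, and in 9.35% of all promoters. The E-box CACGTG of MITF and TFE factors, which drive lysosomal genes, occurred in 0 of the 12 windows and in 7.15% of all promoters. Both strands were searched and no 2 matches overlapped. Each sequence below runs 5′ to 3′ on the plus strand, which is the strand of these genes, with the match in capitals. The stretch of *Gpnmb* ends 30 bases after the RefSeq start and the others end at it.
*Trem2*, chr17:48346251-48346400, AP-1 letters: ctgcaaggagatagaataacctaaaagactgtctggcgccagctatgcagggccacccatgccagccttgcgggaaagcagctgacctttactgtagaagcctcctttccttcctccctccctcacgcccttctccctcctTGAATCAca
*Itgax*, chr7:128129400-128129549, AP-1 letters: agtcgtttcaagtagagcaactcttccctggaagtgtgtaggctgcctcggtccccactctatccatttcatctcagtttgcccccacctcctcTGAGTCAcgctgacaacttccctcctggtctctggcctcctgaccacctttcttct
*Gpnmb*, chr6:49036398-49036547, AP-1 letters: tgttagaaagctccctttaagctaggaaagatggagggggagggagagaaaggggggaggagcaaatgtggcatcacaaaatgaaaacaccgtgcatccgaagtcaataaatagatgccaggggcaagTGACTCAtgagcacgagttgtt
*Mmp12* second start, chr9:7347224-7347373, AP-1 letters: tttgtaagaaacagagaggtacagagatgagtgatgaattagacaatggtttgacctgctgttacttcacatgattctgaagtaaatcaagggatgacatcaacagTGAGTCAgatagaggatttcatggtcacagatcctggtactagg
*Mmp12* first start, chr9:7344247-7344396, PU.1 letters read on the other strand: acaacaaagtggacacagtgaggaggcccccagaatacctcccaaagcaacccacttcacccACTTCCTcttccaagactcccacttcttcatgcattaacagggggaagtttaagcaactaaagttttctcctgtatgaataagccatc
*Spp1* first start, chr5:104434961-104435110, PU.1 letters: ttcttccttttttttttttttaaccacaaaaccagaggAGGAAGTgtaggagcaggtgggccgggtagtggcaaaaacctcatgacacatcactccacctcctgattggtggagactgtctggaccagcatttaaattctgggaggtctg
The match begins 9 bases before the start in *Trem2*, 56 before it in *Itgax*, 44 before it at the second start of *Mmp12*, 88 before it at the first start of *Mmp12* and 112 before it in *Spp1*, and at base 9 after it in *Gpnmb*. A match describes the letters only and is no measured binding site. In *Lgals3*, *Clec7a*, *Ctsk* and *Cd9* these letters are not in the windows.

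Among the surface receptors, *Trem2* (ENSMUSG00000023992, chromosome 17, 48346401 to 48354147 of GRCm38) binds lipids and lipoproteins and signals through the adaptor TYROBP. Control mice 10684, 11253, 11560 and 11563 had normalized *Trem2* values of 0.811, 1.997, 0.745 and 1.30. For Ox1RΔSERT mice 11243, 11613, 11601 and 11708, these were 1.53, 2.54, 16.1 and 14.3. Mice 11601 and 11708 were at 8.06 and 7.15 times the highest control, mouse 11613 was also above all controls, and mouse 11243 lay between control mice 11563 and 11253. The log2 fold change was 2.83 (standard error 0.77), and 0.76 without mice 11601 and 11708.

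*Itgax* (ENSMUSG00000030789, chromosome 7, 128129547 to 128150657) encodes CD11c, the alpha chain of an integrin that pairs with ITGB2 and is also found on dendritic cells. In the same order of mice, the control group showed 0.758, 2.25, 0.429 and 1.41 and the Ox1RΔSERT group 2.01, 1.98, 9.29 and 8.60. The groups overlapped, since control mouse 11253 exceeded mice 11243 and 11613. *Itgax* had a log2 fold change of 2.18 (standard error 0.68), and 0.74 without mice 11601 and 11708. *Clec7a* (ENSMUSG00000079293, chromosome 6, 129461591 to 129472779) encodes Dectin-1, a receptor for fungal beta-glucan that signals through SYK. Control mice had 0.418, 0.824, 0.565 and 0.462, and Ox1RΔSERT mice had 0.393, 0.584, 4.18 and 3.70, in the same order. Mouse 11243 was below all 4 controls and mouse 11613 was among them, so the difference rested on mice 11601 and 11708. Its log2 fold change of 1.97 (standard error 0.75) turned to -0.20 without them.

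Among the secreted proteins, *Spp1* (ENSMUSG00000029304, chromosome 5, 104435118 to 104441050) encodes osteopontin, a matrix protein and cytokine that binds integrins and CD44. Control mice 10684, 11253, 11560 and 11563 had normalized *Spp1* values of 0.758, 1.43, 0.700 and 1.68. For Ox1RΔSERT mice 11243, 11613, 11601 and 11708, these were 2.51, 6.35, 62.0 and 64.2. It was the member whose groups did not overlap: the lowest Ox1RΔSERT mouse, 11243, lay above the highest control, 11563, and mouse 11613 reached 5.57 times the control mean. The 2 highest mice reached 54.3 and 56.3 times that mean. With all 8 mice, *Spp1* had a log2 fold change of 4.88 (standard error 1.06), and 1.96 (standard error 0.47) without mice 11601 and 11708, the highest of the 10 members in both fits. Some *Spp1* counts are uncertain, because 309 exonic bases are shared with *Gm42793*, a gene on the same strand.

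*Mmp12* (ENSMUSG00000049723, chromosome 9, 7344381 to 7369499) encodes macrophage elastase, which cuts elastin. Control mice showed 1.67, 8.21, 1.58 and 2.82, and Ox1RΔSERT mice 5.44, 7.95, 22.3 and 23.4, in the same order. Control mouse 11253 exceeded mice 11243 and 11613, while the other 3 controls lay below all 4 Ox1RΔSERT mice. *Mmp12* had a log2 fold change of 2.06 (standard error 0.67), and 0.93 without mice 11601 and 11708. Its exons share 157 bases with *Mmp1b* on the opposite strand, and whether the quantification used the strand is not given in the sources used here. *Lgals3* (ENSMUSG00000050335, chromosome 14, 47367751 to 47386160) encodes galectin-3, a lectin that marks damaged lysosomes and is also secreted. Control mice had 18.6, 39.3, 23.6 and 60.3, and Ox1RΔSERT mice had 34.2, 34.5, 203 and 171. Mice 11243 and 11613 were below control mice 11253 and 11563, and mice 11601 and 11708 were at 3.37 and 2.83 times the highest control. The log2 fold change of 1.64 (standard error 0.66) became -0.04 without that pair.

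Among the proteins of the lysosome and the cell membrane, *Gpnmb* (ENSMUSG00000029816, chromosome 6, 49036546 to 49070929) encodes a glycoprotein of lysosomes and the cell surface that is a common marker of lipid-laden macrophages. Control mice 10684, 11253, 11560 and 11563 had normalized *Gpnmb* values of 2.14, 15.3, 3.55 and 9.77. For Ox1RΔSERT mice 11243, 11613, 11601 and 11708, these were 11.0, 14.9, 91.3 and 115. Control mice themselves spanned 7.13-fold, the widest control range among the members, and mouse 11253 lay above mice 11243 and 11613. For *Gpnmb* the log2 fold change was 2.92 (standard error 0.90), and 0.77 without mice 11601 and 11708.

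*Atp6v0d2* (ENSMUSG00000028238, chromosome 4, 19876841 to 19922605) encodes the d2 subunit of the proton pump that acidifies lysosomes (V-ATPase), a form found in osteoclasts and some macrophages. Control mice had 0.314, 2.03, 0.565 and 1.24, and Ox1RΔSERT mice had 1.27, 2.25, 13.9 and 13.8, in the same order. Mouse 11613 also lay above all controls, by little, and mouse 11243 lay between controls 11563 and 11253. *Atp6v0d2* had a log2 fold change of 2.92 (standard error 0.88), and 0.78 without mice 11601 and 11708. *Ctsk* (ENSMUSG00000028111, chromosome 3, 95499256 to 95509362) encodes cathepsin K, a protease that degrades collagen. Control mice showed 2.12, 7.39, 2.64 and 3.47, and Ox1RΔSERT mice 6.14, 6.76, 27.8 and 15.2. Control mouse 11253 again exceeded mice 11243 and 11613, and the other 3 controls lay below all 4 Ox1RΔSERT mice. *Ctsk* had a log2 fold change of 1.85 (standard error 0.57), and 0.74 without the pair.

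*Cd9* (ENSMUSG00000030342, chromosome 6, 125460266 to 125494791) encodes a tetraspanin of the cell surface and of vesicles, made by many cell types. Control mice had 6.17, 10.8, 9.35 and 8.68, and Ox1RΔSERT mice had 9.52, 8.24, 27.7 and 22.3, in the same order. Apart from mice 11601 and 11708, the mice of the 2 groups were intermixed. Its log2 fold change of 0.95 (standard error 0.39) was the lowest of the 10 members and became 0.03 without that pair. Exons of *Cd9* share 218 bases with *Gm26728* on the opposite strand.

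Across members, the order of the mice was much the same. Mouse 11601 and mouse 11708 lay above all controls in 10 members each, mouse 11613 in 3 and mouse 11243 in 1. On the log2 scale, the median member lay 3.01 above the mean of the controls in mouse 11601, 2.98 above in mouse 11708, 1.02 above in mouse 11613 and 0.67 above in mouse 11243. The same measure was -0.58, 0.92, -0.52 and 0.31 in control mice 10684, 11253, 11560 and 11563, so mouse 11243 lay below control mouse 11253. Within the control group, mouse 11253 was the highest in 8 members and mouse 11563 in 2, while mouse 10684 was the lowest in 6 and mouse 11560 in 4. Without control mouse 11253, the mouse with the most muscle RNA among the controls, all remaining Ox1RΔSERT values lay above all control values in 7 members (*Gpnmb*, *Spp1*, *Itgax*, *Atp6v0d2*, *Mmp12*, *Ctsk* and *Trem2*) in place of 1. Without Ox1RΔSERT mouse 11243, this held for 3 (*Spp1*, *Atp6v0d2* and *Trem2*). Leaving out a mouse can only keep or raise this count, and mouse 11253 was the highest control in 8 members. The share of all genes without overlap was not worked out for these smaller sets of mice, so nothing is read from the 2 counts. The part of muscle RNA in these values was not tested. Without mice 11253 and 11708 together, 10 of 10 log2 fold changes were above 0, with a median of 2.45.

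Levels were compared between members only per transcript length, as TPM. *Lgals3* had the highest median over the 8 mice (33.9 TPM, range 16.8 to 257), followed by *Cd9* (8.49), *Ctsk* (3.37), *Mmp12* (2.73), *Gpnmb* (2.38), *Spp1* (1.20), *Trem2* (1.13), *Atp6v0d2* (0.509), *Itgax* (0.348) and *Clec7a* (0.220, range 0.129 to 3.13). *Lgals3* exceeded *Cd9*, *Cd9* exceeded *Ctsk* and *Trem2* exceeded *Atp6v0d2* in 8 of 8 mice. Neighbours elsewhere in the order were not separated in this way: *Mmp12* exceeded *Gpnmb*, *Gpnmb* exceeded *Spp1* and *Itgax* exceeded *Clec7a* in 4 of 8 mice each. The place of *Spp1* depended on the mouse, at 0.396 TPM in control mouse 11560 and 50.7 TPM in Ox1RΔSERT mouse 11708, where it was second to *Lgals3* (214 TPM).

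**Figure D2:**
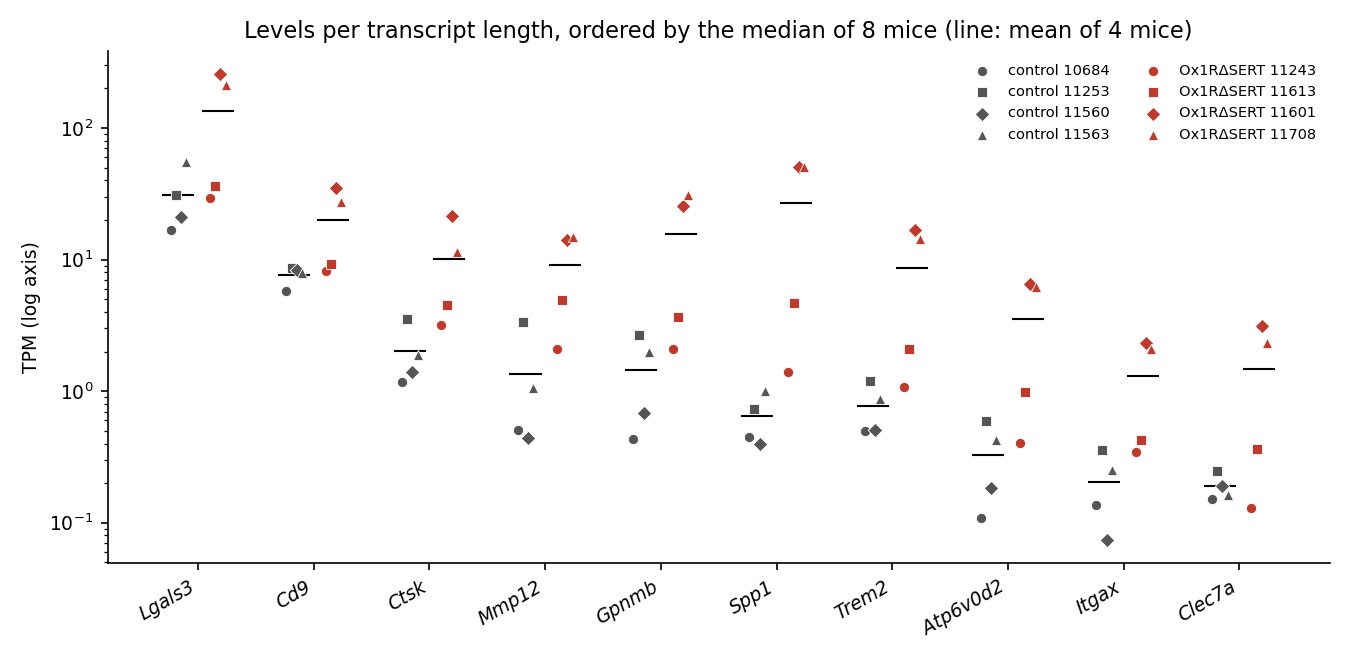
TPM (log axis) of the 10 genes in each mouse, ordered by the median of 8 mice; grey, control mice; red, Ox1RΔSERT mice; lines are group means. *Lgals3* is highest in 8 of 8 mice, and *Spp1* spans the widest range by fold, from 0.396 to 50.7 TPM.

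The macrophage genes used for the ratios were themselves higher in the same mice. Control mice 10684, 11253, 11560 and 11563 had normalized *Adgre1* values of 6.64, 13.7, 4.22 and 6.35, and for Ox1RΔSERT mice 11243, 11613, 11601 and 11708 these were 7.97, 10.1, 50.9 and 40.2. Its log2 fold change was 1.82, with a standard error of 0.64. The *Csf1r* values were 10.6, 21.7, 9.12 and 10.4 against 11.7, 14.7, 45.5 and 38.3 in the same order, a log2 fold change of 1.09 (standard error 0.47). Neither was called, at adjusted p-values of 0.316 and 0.327 in edgeR's quasi-likelihood test and 0.148 and 0.166 in DESeq2. The groups overlapped for both genes, and mice 11601 and 11708 were the highest. Without these 2 mice, the log2 fold change was 0.24 for *Adgre1* (standard error 0.416) and 0.041 for *Csf1r* (standard error 0.346). The 2 references did not move in parallel, since *Csf1r* counts per *Adgre1* count amounted to 1.60, 1.58, 2.16 and 1.64 for control mice, against 1.47, 1.46, 0.894 and 0.954 for Ox1RΔSERT mice, lower in each of the latter. Since 873 exonic bases of *Csf1r* are shared with *Hmgxb3*, which lies on the other strand, its counts are uncertain to that extent.

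Relative to *Adgre1*, most members were still higher in Ox1RΔSERT mice, by less. *Spp1* counts per *Adgre1* count amounted to 0.116, 0.105, 0.168 and 0.266 for control mice, against 0.316, 0.632, 1.22 and 1.60 for Ox1RΔSERT mice, in the same order. All 4 Ox1RΔSERT mice lay above all 4 controls for this ratio, and the difference of mean log2 ratios was 2.37 (standard error 0.60). It was 1 of 10 members without overlap, against 0.0276% of all genes tested, which are 4 genes: *Spp1* and, named after their values were seen, *Fbn2*, *AW551984* and *Sdc1*. The mean log2 ratio was higher in Ox1RΔSERT mice in 7 of 10 members, against 2.08% of all genes, and the median difference was 0.57 over the members, beside -1.51 over all genes, most of which have no link to macrophages. *Adgre1* was itself higher in Ox1RΔSERT mice, which lowers the ratio of a gene that did not differ. The shares are background only and nothing is read from them, because the members were chosen on this contrast.

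For *Trem2* the ratio to *Adgre1* was 0.124, 0.147, 0.179 and 0.207 among the controls, against 0.193, 0.253, 0.317 and 0.355 among the Ox1RΔSERT mice. Mice 11613, 11601 and 11708 lay above all controls, and mouse 11243 lay below control mouse 11563. *Gpnmb* counts per *Adgre1* count were 0.324, 1.12, 0.840 and 1.54 among the controls, against 1.39, 1.48, 1.79 and 2.85 among the Ox1RΔSERT mice. Mouse 10684 was far below the other controls and mice 11601 and 11708 were above all of them. Differences of mean log2 ratios, with standard errors in brackets, were 1.12 (0.54) for *Gpnmb*, 1.03 (0.50) for *Atp6v0d2* and 0.76 (0.25) for *Trem2*. They were 0.61 (0.31) for *Mmp12*, 0.53 (0.27) for *Itgax* and 0.21 (0.31) for *Ctsk*, and the groups overlapped for each of these genes. The remaining members were lower relative to *Adgre1*, with -0.19 (0.43) for *Lgals3*, -0.21 (0.33) for *Clec7a* and -0.73 (0.42) for *Cd9*. Their ratios overlapped between the groups, and for *Cd9* mice 11601 and 11708 had the 2 lowest ratios of all 8 mice.

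Relative to *Csf1r*, 9 of 10 members had a higher mean log2 ratio in Ox1RΔSERT mice, against 6.63% of all genes. In 5 of 10 members (*Spp1*, *Gpnmb*, *Trem2*, *Mmp12* and *Ctsk*) all 4 Ox1RΔSERT mice lay above all 4 controls, against 0.186% of all genes. Most of all genes have no link to macrophages, and *Csf1r* was itself higher in Ox1RΔSERT mice. Nothing is read from these shares either. Outside the members, the genes without overlap that had the largest differences were *Fbn2* (2.43), *F7* (1.94) and *AW551984* (1.73). *Adgre1* (0.57), *Ctss* (0.88) and *Ptprc* (0.50) were also without overlap, and all of these were picked out after their values were seen. *Mmp12* counts per *Csf1r* count amounted to 0.160, 0.378, 0.174 and 0.271 for control mice, against 0.463, 0.541, 0.491 and 0.611 for Ox1RΔSERT mice. The 4 Ox1RΔSERT mice were close to each other in this ratio and all exceeded control mouse 11253, which had exceeded mice 11243 and 11613 in the normalized value. *Ctsk* counts per *Csf1r* count were 0.200, 0.341, 0.290 and 0.334 among the controls, against 0.523, 0.460, 0.612 and 0.398 among the Ox1RΔSERT mice. For *Gpnmb* the gap was narrow, with 0.939 in control mouse 11563 and 0.941 in Ox1RΔSERT mouse 11243. The median difference over the members was 1.14 on the log2 scale, beside -0.94 over all genes, and *Cd9* was the 1 member below 0, at -0.16.

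Without mice 11601 and 11708, the median difference relative to *Adgre1* was about as large, at 0.58, and 7 of 10 members were above 0, and relative to *Csf1r* it was 0.82, also with 7 of 10 above 0. *Spp1* then differed by 1.55 relative to *Adgre1* in place of 2.37, *Mmp12* by 0.88, *Gpnmb* by 0.79 and *Trem2* by 0.46, whereas *Clec7a* differed by -0.54. Without mice 11253 and 11708, the median differences were 0.59 relative to *Adgre1* and 1.10 relative to *Csf1r*. Relative to *Csf1r*, *Lgals3* then differed by 0.071, *Clec7a* by 0.047 and *Cd9* by -0.28, beside 0.38, 0.37 and -0.16 with all 8 mice. Relative to *Adgre1*, *Lgals3* then differed by -0.45, *Clec7a* by -0.47 and *Ctsk* by 0.46. With all 8 mice and the summed counts of 12 general macrophage genes as the reference, the median difference was 1.06, and with *Cd68*, a lysosomal glycoprotein of macrophages, it was 0.77.

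**Figure D3:**
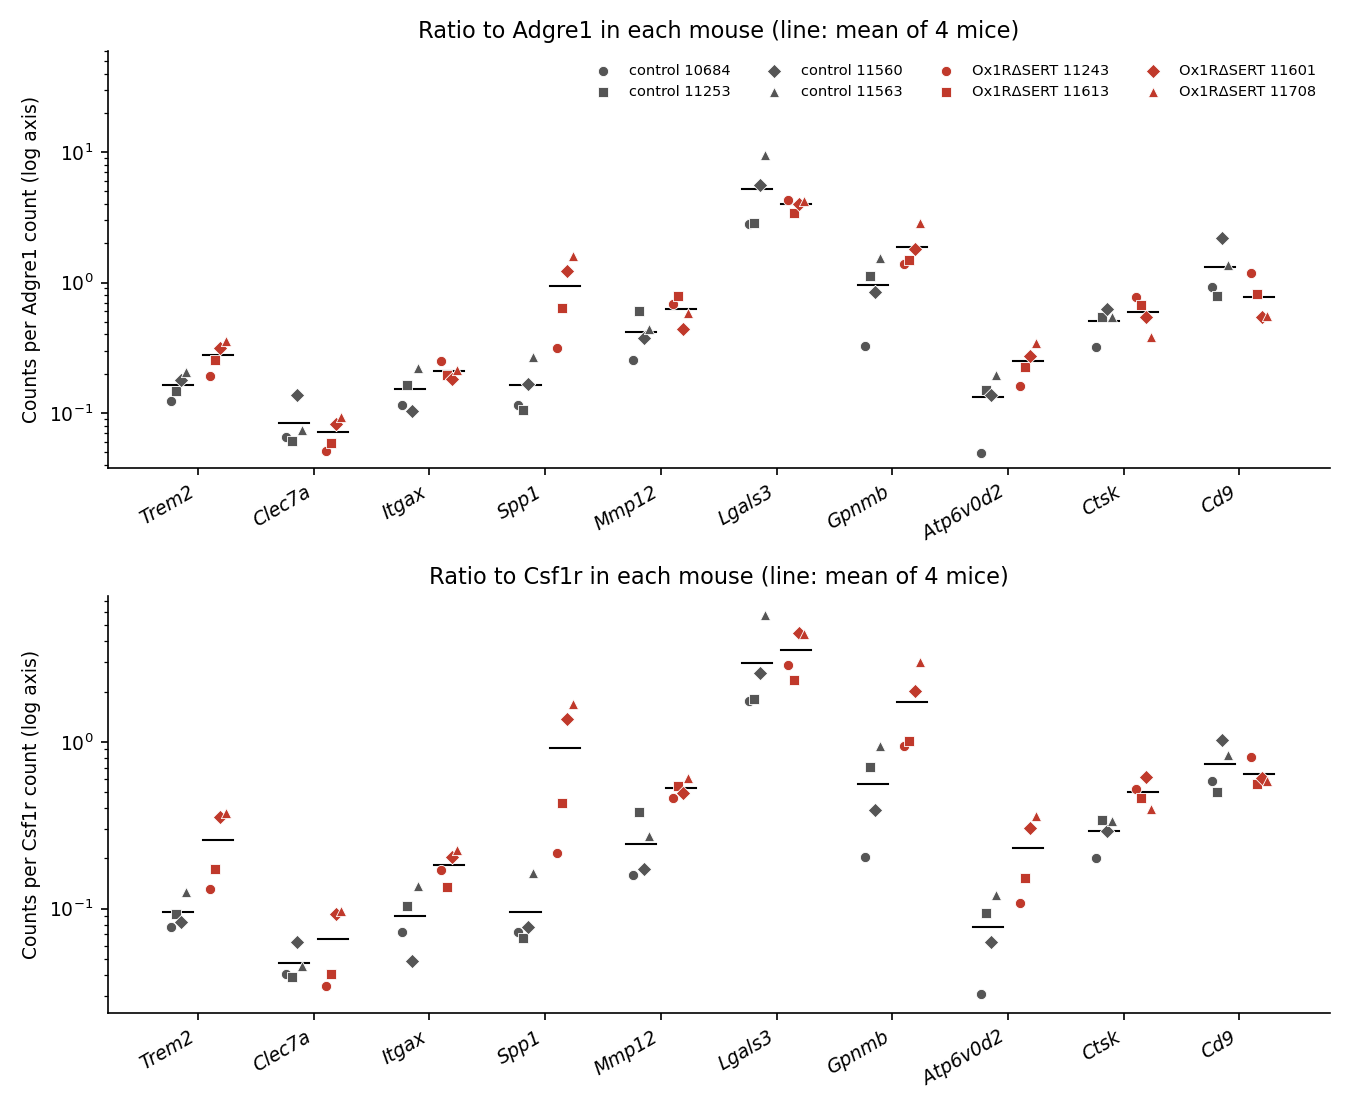
Counts of each of the 10 genes per count of *Adgre1* (top) and of *Csf1r* (bottom) in each mouse, on log axes; grey, control mice; red, Ox1RΔSERT mice; lines are group means. *Spp1* separates the groups in both panels, *Gpnmb*, *Trem2*, *Mmp12* and *Ctsk* in the lower panel, and *Cd9* is lower relative to *Adgre1* in mice 11601 and 11708.

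Other macrophage genes were set beside the members. Of 12 general macrophage genes, 4 were called higher by DESeq2 (*Cd14*, *Cybb*, *Laptm5* and *Ptprc*) and 0 by edgeR at an adjusted p under 0.05, with a median log2 fold change of 1.59. The gene with the highest median TPM, *Lyz2* (lysozyme), had a log2 fold change of 1.59. The median difference of this list relative to *Adgre1* was -0.23, where that of the members was 0.57. Relative to *Csf1r* it was 0.35, where that of the members was 1.14. Relative to *Adgre1* and *Csf1r*, medians were 0.099 and 0.67 for the monocyte genes and 0.042 and 0.61 for the fibroblast genes, both described below. They were -1.05 and -0.48 for the resident macrophage genes. The 14 genes of resident, perivascular macrophages had a median log2 fold change of 0.47 over the 12 tested, with *Mrc1* (mannose receptor) called higher by DESeq2 at 1.43, *Pf4* at 1.43, *Retnla* at 0.52 and *Cd209f* at -0.77. *Timd4* and *Vsig4* did not pass the filter on low counts. Of 5 monocyte genes, DESeq2 called *Ccr2* (1.88), the receptor that draws monocytes into tissue, and *Plac8* (2.29), whereas *Ly6c2* had 0.32, and the median was 1.85. Without mice 11601 and 11708, where the median over the members was 0.75, the medians were 0.23 for the general macrophage genes, 0.011 for the resident macrophage genes and -0.28 for the monocyte genes, and DESeq2 called 0 genes of each list. Without mice 11253 and 11708, the monocyte median was 1.07 and DESeq2 also called 0 genes of each list.

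A further 23 genes are also reported in lipid-associated macrophages, and many of them are made by adipocytes or by most cells. Over the 22 tested, the median log2 fold change was 0.56, with 16 above 0 and 6 below. DESeq2 called 5 higher, the lipid carrier *Fabp5* (0.87), the TREM2 adaptor *Tyrobp* (1.69), *Capg* (1.66), *Cd84* (1.94) and *Ms4a7* (2.25), and 1 lower, lipoprotein lipase *Lpl* (-0.61). The fatty acid transporter *Cd36* had the second highest TPM of this list after *Lpl* and a log2 fold change of -0.17, and *Ctss* (cathepsin S) had the highest log2 fold change, 2.29. Among 16 partners of the member receptors and ligands, 16 had log2 fold changes above 0, with a median of 1.22. DESeq2 called *Tyrobp* and *Syk* (1.60), while *Cd44*, a receptor for osteopontin, had 2.37, and *Itgb1* and *Bcl10*, which most cells express, had 0.15 and 0.06. Leaving out mice 11601 and 11708 gave a median of 0.059 over the further lipid-associated genes and of 0.11 over the partners, and DESeq2 then called 0 genes of either list, as it did without mice 11253 and 11708.

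Most other subunits of the proton pump to which *Atp6v0d2* belongs had log2 fold changes near 0. Of 17 V-ATPase genes, 13 had log2 fold changes below 0 and 4 above, with a median of -0.10, which turned to 0.11 with scaling by library size and to 0.25 and 0.26 with TPM values, settings that moved the median of all genes by 0.22 to 0.32. *Tcirg1*, the a3 subunit used by osteoclasts and macrophages, had the highest at 1.05, the abundant *Atp6v0c* and *Atp6v0e* had -0.06 and -0.15, and *Atp6v1h* had the lowest at -0.46. Neither edgeR nor DESeq2 called any of the 17 genes at an adjusted p under 0.05, and 3 had an unadjusted p under 0.05 in edgeR. Among the 4 MiT/TFE factors that drive lysosomal genes, *Tfec*, which is largely found in myeloid cells, had a log2 fold change of 2.02, *Tfeb* had 0.27 and *Tfe3* had 0.01, and DESeq2 called 0. *Atp6v0d2* and *Ctsk* are also osteoclast genes. Of 7 other osteoclast genes, *Acp5* (tartrate-resistant acid phosphatase) had -0.18, *Oscar* had -0.49, *Mmp9* had 0.69 and *Calcr* had 0 counts in all 8 mice. *Dcstamp*, named after its values were seen, had 0 to 24 counts and did not pass the filter on low counts. Its mean normalized value was 0.018 in control mice, under the floor, and 0.25 in Ox1RΔSERT mice, and the groups did not overlap. The median over the 5 tested was -0.18, and it was 0.03 with scaling by library size. Medians without mice 11601 and 11708 were -0.058 for the V-ATPase genes, 0.30 for the MiT/TFE factors and 0.0090 for the osteoclast genes, and without mice 11253 and 11708 they were -0.030, 0.48 and -0.066.

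**Figure D4:**
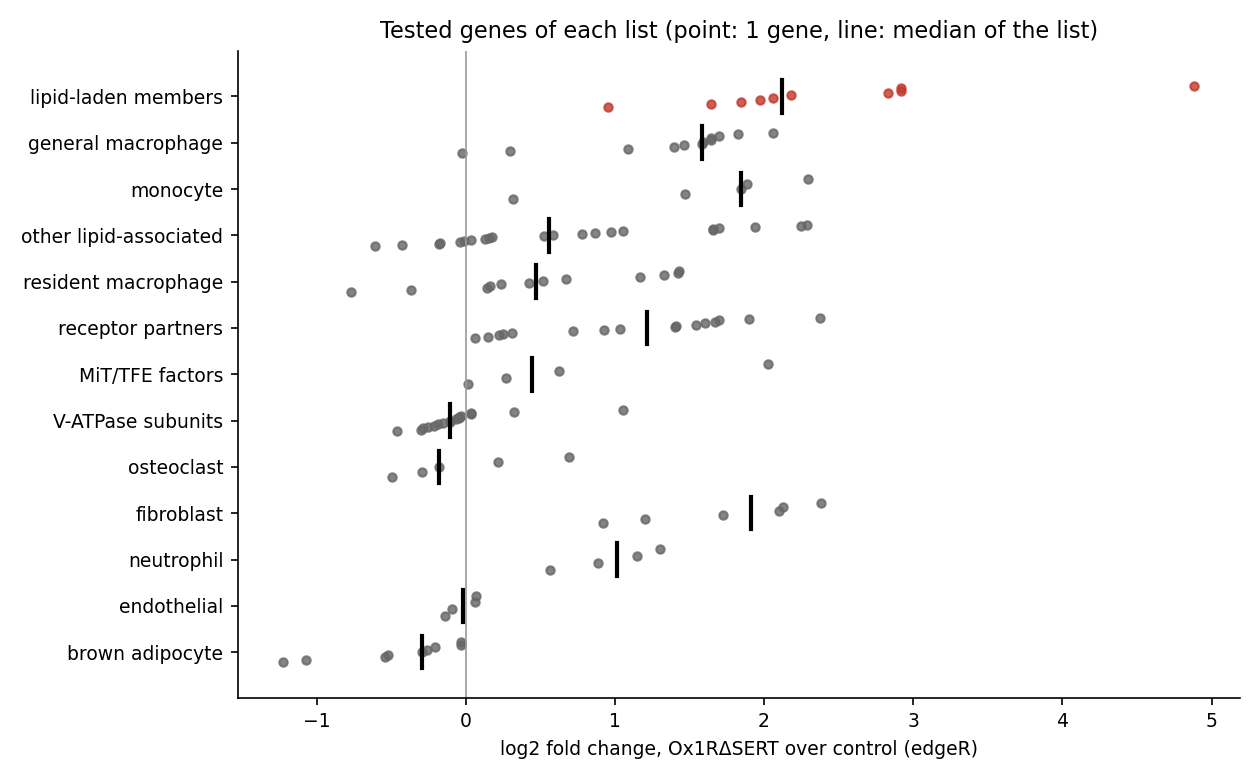
The log2 fold change of Ox1RΔSERT over control mice (edgeR) for each tested gene of 13 lists; points are genes and black lines are medians. The median is 2.12 for the 10 members (red), 1.59 for general macrophage genes, 1.91 for fibroblast genes and -0.10 for V-ATPase subunits.

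For 8 members, a related gene of the same family was set beside them. The ubiquitous pump subunit *Atp6v0d1* had mean normalized values of 60.4 ± 8.73 (SD, n = 4, controls) and 59.2 ± 7.49 (SD, n = 4, Ox1RΔSERT), a log2 fold change of -0.03 beside 2.92 for *Atp6v0d2*. *Lgals1* (galectin-1) had -0.04 beside 1.64 for *Lgals3*, and *Cd81*, a tetraspanin, had -0.02 beside 0.95 for *Cd9*. *Pmel*, the pigment cell relative of *Gpnmb*, was near the limit of detection, at 0.265 ± 0.0593 and 0.224 ± 0.0778 (SD, n = 4 each), with a log2 fold change of -0.23. The myeloid relatives *Itgam* (CD11b), *Ctss* and *Trem1* were higher along with the members, with 1.75, 2.29 and 2.83, and of these DESeq2 called *Itgam*. *Mmp9*, set beside *Mmp12*, had 0.69 (standard error 0.43). Its highest normalized value was 1.48 in mouse 11613, and mouse 11243, at 0.349, lay below all controls. *Trem1* had 2 counts in control mouse 11253 and 3 in control mouse 11563, so its fold is poorly determined. Exons of *Itgam* share 3450 bases with *Gm49368* on the same strand, so its counts are uncertain. In the fit without mice 11601 and 11708, *Itgam* had a log2 fold change of 0.30, *Ctss* of 0.38 and *Trem1* of 0.98, and DESeq2 no longer called *Itgam*. The difference between a member and its relative was not tested.

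**Figure D5:**
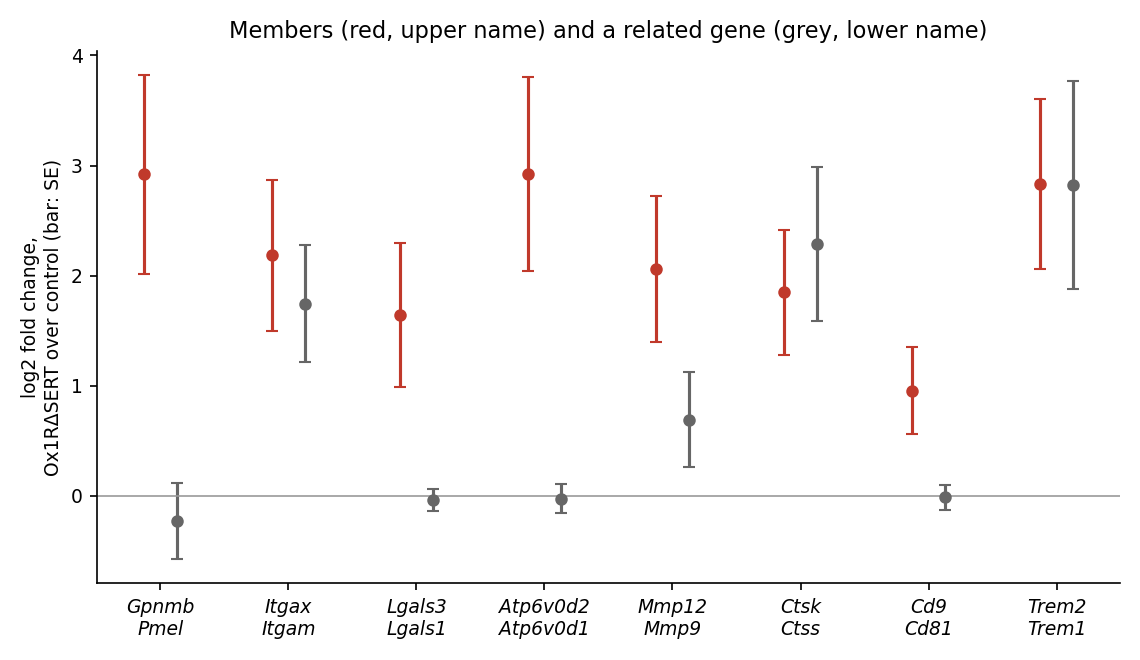
The log2 fold change (edgeR, Ox1RΔSERT over control, bars are standard errors) of 8 members (red) and of 1 related gene for each (grey). *Atp6v0d1*, *Lgals1* and *Cd81* lie at -0.03, -0.04 and -0.02, whereas *Itgam*, *Ctss* and *Trem1* lie at 1.75, 2.29 and 2.83. *Pmel* and *Mmp9* lie at -0.23 and 0.69.

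Among the markers of other cell types, those of fibroblasts were highest in the same 2 mice as the members. All 6 fibroblast genes had log2 fold changes above 0, with a median of 1.91, and mice 11601 and 11708 held the 2 highest values in 6 of 6. Their summed level was 102 to 219 TPM in control mice, 162 TPM in mouse 11243, 276 TPM in mouse 11613, 1754 TPM in mouse 11601 and 785 TPM in mouse 11708. *Col3a1* and *Col1a1*, which encode fibrillar collagens, had 2.10 and 2.38, *Dcn* had 0.92, and DESeq2 called *Pdgfra* (1.20). The fibroblast median was 0.43 without mice 11601 and 11708, and *Pdgfra* was then not called. For the other cell types, these mice held the 2 highest values in 1 of 4 neutrophil, 1 of 6 dendritic cell, 0 of 4 endothelial and 0 of 9 brown adipocyte genes tested. Neutrophil genes had a median of 1.02 over the 4 tested of 7, led in level by *S100a9* (1.15) and *S100a8* (0.88), while *Ly6g*, *Mpo* and *Elane* did not pass the filter on low counts. Summed neutrophil markers reached 42.3 TPM in control mouse 10684, 49.6 TPM in mouse 11613, 46.1 TPM in mouse 11601 and 89.8 TPM in mouse 11708, and their median was 0.56 without mice 11601 and 11708 and 0.46 without mice 11253 and 11708. Dendritic cells also express *Itgax*, and their list had a median of 0.32 over 6 tested of 7, with *Flt3* at 1.36, *Zbtb46* at 0.10 and *Irf4* at -0.44, and a median of 0.23 without mice 11601 and 11708 and 0.17 without mice 11253 and 11708. *Ccr7*, the chemokine receptor of migrating dendritic cells and some T cells, did not pass the filter of edgeR, but DESeq2 called it higher (adjusted p = 0.0181). It had 2 to 3 counts in each control mouse and 7, 10, 90 and 41 counts in Ox1RΔSERT mice 11243, 11613, 11601 and 11708, so the groups did not overlap, and no fold is given for controls at the floor. DESeq2 no longer called it without mice 11601 and 11708 together, without mice 11253 and 11708 (adjusted p = 0.164), or without control mouse 11560 (0.153) or 11563 (0.0979) or Ox1RΔSERT mouse 11601 (0.382) or 11708 (0.134). Summed T cell markers were low, at 0.164 to 0.615 TPM in control mice and 0.334, 0.430, 1.21 and 0.875 TPM in Ox1RΔSERT mice 11243, 11613, 11601 and 11708. Only 1 of the 6 T cell genes passed the filter on low counts. Summed B cell markers stayed at or under 0.376 TPM in every mouse. The 4 endothelial genes had a median of -0.02, which was 0.036 without mice 11601 and 11708 and 0.056 without mice 11253 and 11708. Markers of brown adipocytes, the main cells of the tissue, were abundant in all 8 mice, at a summed 10144 to 12893 TPM, and 9 of 9 had log2 fold changes below 0, from -1.22 for *Dio2* to -0.03 for *Plin1*, with *Ucp1* at -0.54, *Fabp4* at -0.29 and *Elovl3*, called lower by DESeq2, at -1.07; with TPM values their median of -0.29 became 0.01, and without mice 11601 and 11708 it was -0.12, with *Elovl3* not called (-0.15 without mice 11253 and 11708). The part of any of these cell types in the members' values was not tested.

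Genes outside the list whose levels followed the members most closely were ranked by Pearson's r over the 8 mice between their log2 level and the mean z score of the 10 members. The 10 highest were *Cmtm3* (r = 0.995), *Cd300a* (0.995), *Stap1* (0.993), *Plekho2* (0.992), *Ankrd13b* (0.992), *Clec4a3* (0.991), *Il7r* (0.990), *Elf4* (0.990), *Tubb5* (0.990) and *Rab7b* (0.989). *Cd300a* and *Clec4a3* encode inhibitory receptors of myeloid cells, *Rab7b* a small GTPase of late endosomes and *Tubb5* a beta-tubulin. All 8 points share 2 high mice, and 7.20% of the 14479 genes compared had an r above 0.9. Without mice 11601 and 11708, r of these 10 genes lay between 0.936 and 0.994 over 6 mice. The 10 genes were picked for their r over 8 mice that include these 6, so a high r here was favoured in advance. No share of all genes was worked out over the 6 mice. *Ctss* ranked 70 (r = 0.976), *Adgre1* ranked 123 (r = 0.971), *Itgam* ranked 215 (r = 0.962), *Tyrobp* ranked 233 (r = 0.960) and *Csf1r* ranked 253 (r = 0.959), whereas *Atp6v0d1* had an r of -0.058.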

How the data were processed

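Libraries were made from poly-A selected RNA with a stranded kit. The authors quantified genes with Salmon 0.14.1 against GRCm38 and deposited estimated counts, not normalized, and TPM values, which the authors scaled by length and depth. The submitters' notes also list STAR and DESeq2 1.26.0, and the annotation release is not given in the sources used here. Symbols came from GENCODE M21 (98.8% of 44674 identifiers) and promoters from RefSeq on GRCm38.p6.

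Estimated counts were rounded and the groups compared with edgeR 4.0.16 (filterByExpr, TMM, quasi-likelihood test, two-sided, Benjamini-Hochberg adjustment over 14489 genes, threshold 0.05) in R 4.3.3, without covariates. Ratios were taken on estimated counts with 0.5 added, and log2 levels used a pseudocount of 0.1 CPM. Alternatives were DESeq2 1.42.0, limma 3.58.1 (voom, and trend on log2(TPM + 0.1) or log2(TPM + 1)), other scalings and filters, robust dispersions, an adjusted p under 0.1 and each mouse left out. The fits were tested on simulated counts. The members, the lists and the comparisons were chosen with earlier results of these data known. Named genes are the members, both references, 1 relative for 8 members, the 10 genes most like the members and, of each other list, the 2 of highest median TPM, those of highest and lowest log2 fold change, those called by DESeq2 and markers at 0 in all mice. A gene that this rule names is not reported here.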

Additional observations from a re-analysis of the deposited data

Results flagged for a closer look

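In groups of 4 mice, a value was set apart when its gap to the nearest mouse, as a share of the range of its group, passed the critical value of Dixon's test, which chance does in about 1 in 20 groups. Among 68 groups of values of the 10 members, *Adgre1* and *Csf1r*, 4 had such a value, all of control mice. *Spp1* counts per *Csf1r* count were 0.162 in control mouse 11563 and 0.0664 to 0.0779 in the other 3 controls. The other 3 concern the references: *Csf1r* had a normalized value of 21.7 in control mouse 11253 and 9.12 to 10.6 in the other controls, and control mouse 11560 had 2.16 *Csf1r* counts per *Adgre1* count against 1.58 to 1.64, which is the same as 0.464 *Adgre1* counts per *Csf1r* count against 0.610 to 0.631.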

How the results depend on the processing

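No paired analysis was possible because the labels give no replicate numbers that the groups share, only a number for each mouse. In every setting tried with all 8 mice or without 1 mouse, 10 of 10 members had log2 fold changes above 0, and the median over the members was 1.63 to 2.73 against 2.12 as reported, the range over mice left out being 1.79 to 2.73. Calls depended on the tool and on single mice: the edgeR and limma settings called 0 genes, and DESeq2 called 265 genes and 4 members, 17 to 1516 genes and 0 to 9 members without 1 mouse (genes: 373, 247, 17 and 49 without control mice 10684, 11253, 11560 and 11563, and 1516, 936, 17 and 19 without Ox1RΔSERT mice 11243, 11613, 11601 and 11708), 8 genes and 0 members without mice 11601 and 11708, and 26 genes and 2 members without mice 11253 and 11708. The last settings were chosen after seeing the data. Without mice 11601 and 11708, the median over the members was 0.75, *Lgals3* had a log2 fold change of -0.041 and *Clec7a* of -0.20, and the cause was not tested. Members without overlap between the groups numbered 1 to 7 without 1 mouse and 7 without mice 11253 and 11708. The share of all genes was not worked out for these sets of mice, and leaving out mice can only keep or raise the count. The median difference relative to *Adgre1* was 1.06 with summed general macrophage genes as the reference, and relative to *Csf1r* no setting moved it by more than the spread between mice. Scaling by library size moved the median of all genes to 0.22, and log2(TPM + 1) and log2(TPM + 0.1) moved it to 0.23 and 0.32. In these 3 settings, in this order, medians of lists near 0 turned sign: V-ATPase 0.11, 0.25 and 0.26, osteoclast 0.030, 0.12 and 0.12, B cell 0.15, 0.033 and 0.23, endothelial 0.20, 0.28 and 0.31, and, with TPM only, brown adipocyte 0.0091 in both. B cell markers also turned to 0.24 with voom. Without mice 11601 and 11708, medians that turned sign were -0.28 for monocyte, 0.0090 for osteoclast, 0.036 for endothelial and -3.74 for skeletal muscle genes, and without mice 11253 and 11708 the endothelial median was 0.056. The skeletal muscle median was 0.58 with all 8 mice and 3.79 without mice 11253 and 11708. Without 1 mouse, B cell markers ranged from -0.33 to 0.65, endothelial genes from -0.11 to 0.070 and skeletal muscle genes from -2.31 to 6.98. Counting error weighed most on *Atp6v0d2* in control mouse 10684, which had the lowest count of a member, 12.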
